A study of Canis lupus familiaris with 45 samples.

Results

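The genes described here encode respiratory complexes II, III, IV and V in subcutaneous fat of dogs. They were taken as every gene whose only platform symbol was SDHA, SDHB, SDHC or SDHD or began with UQCR, COX4, COX5, COX6, COX7, COX8 or ATP5, with COX6A2 left out. This gave 27 genes, 4 of complex II, 7 of complex III, 6 of complex IV and 10 of complex V, among the 9113 genes with 1 symbol that could be tested. Each gene was read at the probe set whose average over 45 arrays was the highest, and all 27 were above the filter (log2 4 on at least 4 arrays) on 45 of 45 arrays. Not all are core subunits: ATP5IF1 is an inhibitor of complex V, and COX7A2L joins complexes III and IV into larger assemblies.

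The tissue came from 9 intact female beagles that were 4 years old, all eating Purina Pro Plan Performance Formula and all biopsied after a night without food. The control dogs 1, 3, 4 and 9 (n = 4) received enough to hold their starting weight. The ad libitum dogs 2, 5, 6, 7 and 8 (n = 5) had free access to food after the week-0 sample. Each dog was sampled at weeks 0, 4, 8, 12 and 24, with 1 array per dog and week, 45 in all. The p-values rest on the spread between arrays within feeding group and week, pooled over all 45 arrays of these 9 dogs. Both feeding groups share this pooled spread. At week 24 the mean over the 27 genes had an SD of 0.05 in controls and 0.39 in ad libitum dogs. The question was how free feeding altered gene expression in this fat over time.

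The respiratory chain sits in the inner mitochondrial membrane. Complex II passes electrons from succinate to ubiquinone, complex III hands them from ubiquinone to cytochrome c, complex IV uses them to reduce oxygen, and complex V makes ATP from the proton gradient that results. White fat has few mitochondria compared with muscle or brown fat, and brown fat uses the uncoupling protein UCP1 to release the gradient as heat. In bulk tissue, fewer cells of a type and less RNA per cell cannot be told apart.

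Some arrays stood apart. Contractile genes of skeletal muscle were present on 10 of 45 arrays, with a mean over 28 muscle genes of log2 7.66 to 14.53, against 3.87 to 5.34 on the other 35. Of those 10 arrays, 5 were from week 0 (control dogs 1 and 3 among them), 2 were week-24 controls (dogs 3 and 4) and 0 were week-24 ad libitum arrays. A check of 100 probe sets that separate the dogs matched 43 of 45 arrays to the labelled dog; at week 8 the array labelled dog 9 matched dog 5, and the array labelled dog 5 matched dog 9. Adipocyte genes were present on every array, with ADIPOQ, the fat-cell hormone adiponectin, at log2 14.72 or more. All 9 week-24 arrays formed laboratory batch 6, and no other week was in it.

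Before week 24, the 27 genes gave no called difference between the feeding groups. Their mean over all 27 on an array lay between log2 12.57 and 13.57 in controls and between 12.40 and 13.36 in ad libitum dogs at weeks 0 to 12, so the groups overlapped widely. At week 24 the 4 controls lay close together at 12.12 in dog 1, 12.10 in dog 3, 12.05 in dog 4 and 12.17 in dog 9. The ad libitum dogs read 13.15 in dog 2, 12.08 in dog 5, 12.43 in dog 6, 12.53 in dog 7 and 12.61 in dog 8. Thus 4 of the 5 ad libitum arrays lay above every control array, and dog 5 lay among the controls. Dogs 2, 6, 7 and 8 lay within the range of the ad libitum arrays of weeks 0 to 12, and dog 5 and all 4 controls lay below the range of their own group at those weeks.

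**Figure D1:**
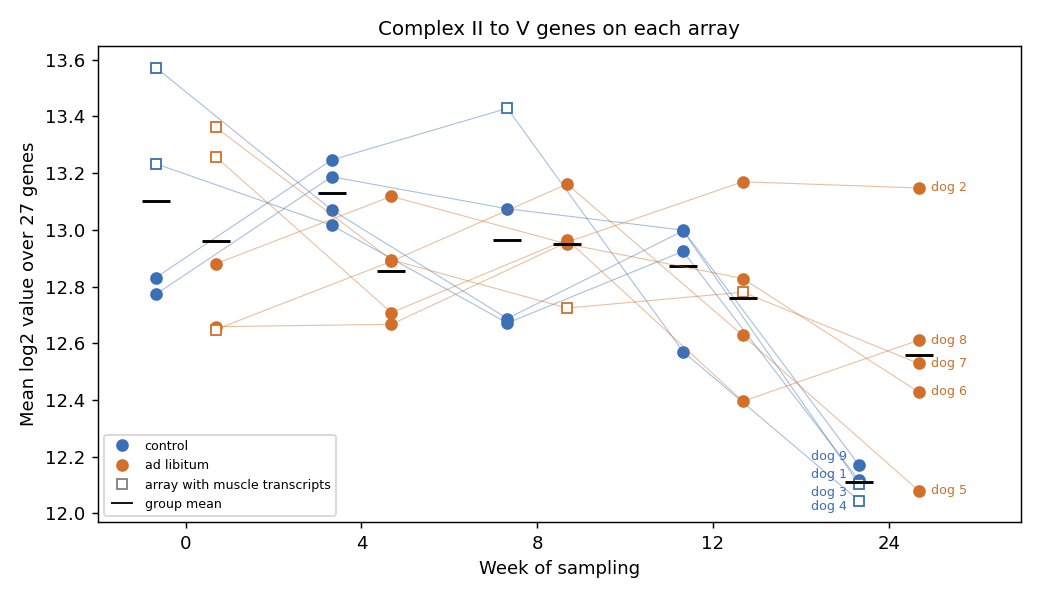
Mean log2 value over the 27 complex II to V genes (vertical axis) on each of the 45 arrays by week of sampling (horizontal axis, categories). Points joined by a line carry the same dog label, open squares are the 10 arrays with muscle transcripts, and black bars are group means; the 4 week-24 control arrays sit between 12.05 and 12.17.

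At week 24, 3 of 27 genes were called higher in ad libitum than in control dogs: COX7A2L, COX8A and ATP5J2. The fitted difference was above 0 for 26 of 27 genes, against 50.7% of all tested probe sets, and its median was log2 0.46, against 0.01 over all tested probe sets. A call means an adjusted p under 0.05 in limma over the 22690 tested probe sets, of which 3.76% were called higher in ad libitum dogs. Of the 27 genes, 17 had an unadjusted p under 0.05, against 22.7% of all tested probe sets. All 5 ad libitum arrays lay above all 4 control arrays for 4 of 27 genes (SDHC, UQCRC1, ATP5J2 and ATP5MC1), against a background of 5.41%. Both groups share batch 6 at this week, so this difference holds no batch difference.

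**Figure D2:**
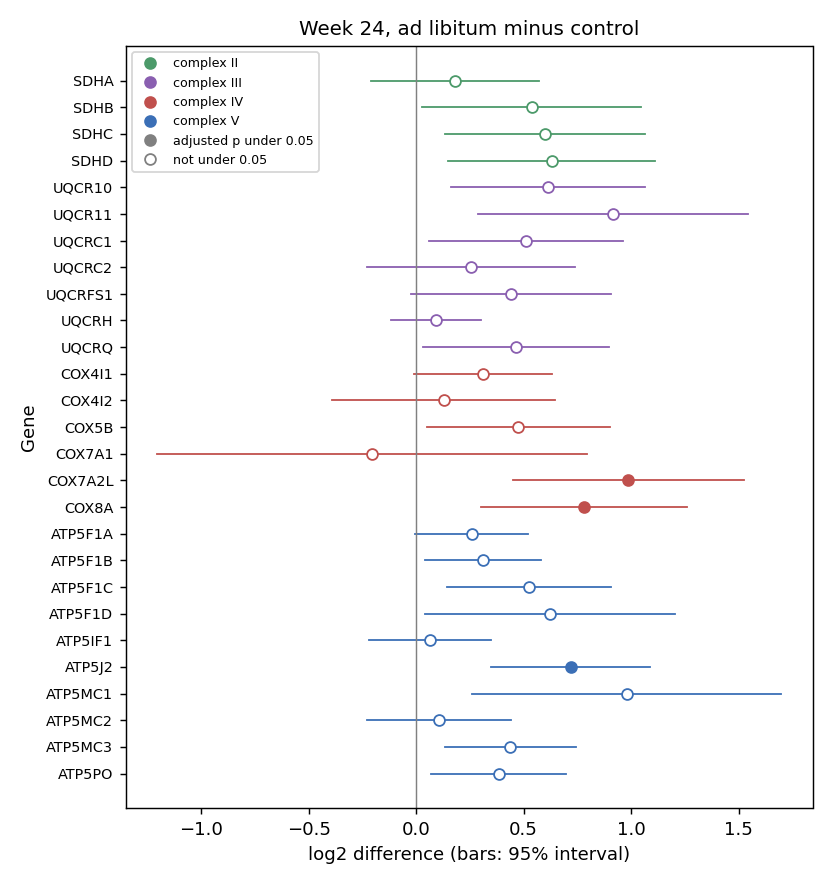
Fitted log2 difference at week 24, ad libitum minus control (horizontal axis), for each of the 27 genes (vertical axis), with its 95% interval and coloured by complex. Filled points are the 3 genes past the adjusted threshold, COX7A2L, COX8A and ATP5J2, and COX7A1 alone lies below 0.

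In complex II, none of the 4 genes passed the threshold, and their median difference was 0.57. SDHD, a membrane anchor that holds the complex in place, read 8.94, 9.29, 8.92 and 9.18 in control dogs 1, 3, 4 and 9, and 10.37, 9.07, 9.55, 9.76 and 9.82 in ad libitum dogs 2, 5, 6, 7 and 8. Every ad libitum dog other than dog 5 lay above all controls. The difference was 0.63 (SE 0.236, adjusted p = 0.104, limma). SDHC, the other anchor, read 11.99, 12.06, 11.74 and 11.84 in the same controls and 13.05, 12.21, 12.23, 12.47 and 12.57 in the ad libitum dogs. The groups did not overlap, and the difference was 0.60 (SE 0.228, adjusted p = 0.109, limma). SDHB, the iron-sulfur subunit, differed by 0.54 (SE 0.251), and SDHA, the flavoprotein that oxidises succinate, by 0.18 (SE 0.192).

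In complex III, none of 7 genes passed, with a median difference of 0.46. UQCR11, a small accessory subunit, read 10.94, 10.72, 10.63 and 10.97 in controls 1, 3, 4 and 9, and 12.71, 10.95, 11.45, 11.63 and 11.90 in ad libitum dogs 2, 5, 6, 7 and 8. Only dog 5 lay within the control range. The difference was 0.92 (SE 0.309, adjusted p = 0.0710, limma). UQCR10, another small subunit, read 12.03, 11.96, 11.90 and 12.26 in controls and 13.32, 12.02, 12.47, 12.64 and 12.80 in ad libitum dogs, a difference of 0.61 (SE 0.222, adjusted p = 0.0929, limma). Again dog 5 alone lay among the controls. The core protein UQCRC1 differed by 0.51 (SE 0.222), the second core protein UQCRC2 by 0.25 (SE 0.238), and the Rieske iron-sulfur protein UQCRFS1 by 0.44 (SE 0.229). UQCRQ differed by 0.46 (SE 0.212) and UQCRH by 0.09 (SE 0.103).

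In complex IV, 2 of 6 genes were higher at week 24. COX7A2L, the factor that ties complexes III and IV together, read 9.60, 9.66, 8.76 and 9.30 in controls 1, 3, 4 and 9, and 11.28, 9.28, 10.26, 10.22 and 10.53 in ad libitum dogs 2, 5, 6, 7 and 8. The ad libitum arrays were higher than every control except in dog 5. The group means were 9.33 ± 0.41 (SD, n = 4) and 10.31 ± 0.72 (SD, n = 5), and the difference was 0.99 (SE 0.264, 1.98-fold, adjusted p = 0.0248, limma). COX8A, a small subunit found in most tissues, read 11.70, 11.15, 11.31 and 11.63 in controls and 13.12, 11.56, 12.08, 12.05 and 12.35 in ad libitum dogs. Its means were 11.45 ± 0.26 (SD, n = 4) and 12.23 ± 0.57 (SD, n = 5), a difference of 0.78 (SE 0.236, 1.72-fold, adjusted p = 0.0439, limma). Dog 5 again lay inside the control range. COX5B, a subunit encoded in the nucleus like the others here, differed by 0.48 (SE 0.210) and was not called.

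The complex IV isoforms COX4I1, COX4I2 and COX7A1 were not called at week 24. COX4I1, the form of subunit 4 found in most tissues, differed by 0.31 at week 24 (SE 0.158, adjusted p = 0.234, limma), whereas COX4I2, the form known for its response to low oxygen, differed by 0.13 (SE 0.255, 95% interval -0.39 to 0.65). COX7A1, the form of subunit 7A that marks heart, skeletal muscle and brown fat, was the only gene with a negative difference, -0.20 (SE 0.491, 95% interval -1.20 to 0.79). Its arrays read 9.97, 10.79, 10.83 and 10.33 in controls 1, 3, 4 and 9, and 11.33, 9.68, 10.11, 10.43 and 9.82 in ad libitum dogs 2, 5, 6, 7 and 8. The 2 highest controls, dogs 3 and 4, were the 2 week-24 arrays with muscle transcripts. Without the arrays that carry muscle transcripts, the COX7A1 difference was 0.10 (adjusted p = 0.940, limma), and 0 of 27 genes were called at week 24. In that fit 0.145% of all tested probe sets were called higher, against 3.76% with all arrays. The sizes moved less than the calls: the median over the 27 genes was 0.45, COX7A2L had 0.91, COX8A 0.55 and ATP5J2 0.70. The differences between the isoforms were not tested.

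In complex V, 1 of 10 genes was called higher. ATP5J2, the f subunit of the membrane part (now also called ATP5MF), read 12.48, 12.37, 12.51 and 12.51 in controls 1, 3, 4 and 9, and 13.75, 12.80, 12.92, 13.16 and 13.32 in ad libitum dogs 2, 5, 6, 7 and 8. All 5 lay above all 4 controls, dog 5 included. The means were 12.47 ± 0.06 (SD, n = 4) and 13.19 ± 0.37 (SD, n = 5), and the difference was 0.72 (SE 0.182, 1.65-fold, adjusted p = 0.0179, limma). The genes ATP5MC1, ATP5MC2 and ATP5MC3 encode the same mature c subunit, the ring that turns as protons pass, behind different import sequences. They differed by 0.98 (SE 0.353), 0.11 (SE 0.164) and 0.44 (SE 0.151), with adjusted p = 0.0912, 0.745 and 0.0766 (limma), so none was called. ATP5MC3 read 13.62, 13.47, 13.49 and 13.66 in controls 1, 3, 4 and 9, and 14.36, 13.61, 13.83, 14.15 and 14.06 in ad libitum dogs 2, 5, 6, 7 and 8, with dog 5 alone inside the control range.

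ATP5MC1 read 11.33, 11.74, 11.45 and 11.59 in the controls and 13.54, 11.85, 12.32, 12.20 and 12.63 in the ad libitum dogs, in the same order of dogs. The groups did not overlap, but the ad libitum arrays spanned a far wider range than the controls. Of the F1 head, the catalytic subunit ATP5F1B differed by 0.31 (SE 0.132) and its partner ATP5F1A by 0.26 (SE 0.129). The stalk subunits ATP5F1C and ATP5F1D differed by 0.52 (SE 0.188) and 0.62 (SE 0.286), and ATP5PO, which links the head to the membrane part, by 0.38 (SE 0.154). The inhibitor ATP5IF1 differed by 0.06 (SE 0.139, 95% interval -0.22 to 0.35).

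The same ad libitum dogs were highest and lowest in nearly every gene, while dogs 6, 7 and 8 changed places between them. Dog 2 was the highest of the 5 in 26 of 27 genes, all but COX4I2, and dog 5 was the lowest in 26 of 27, again all but COX4I2. Dog 2 lay above all 4 controls in 26 genes, dog 7 in 24, dog 8 in 22, dog 6 in 21 and dog 5 in 4. Dog 5 lay below all controls in 9 genes. The range over the ad libitum dogs was wider than that over the controls in 26 of 27 genes, with medians of 1.01 and 0.286, although 5 arrays give a wider range than 4 by their number alone. The genes share their arrays, so these positions are a statement about 5 dogs and not about 27 independent measurements.

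**Figure D3:**
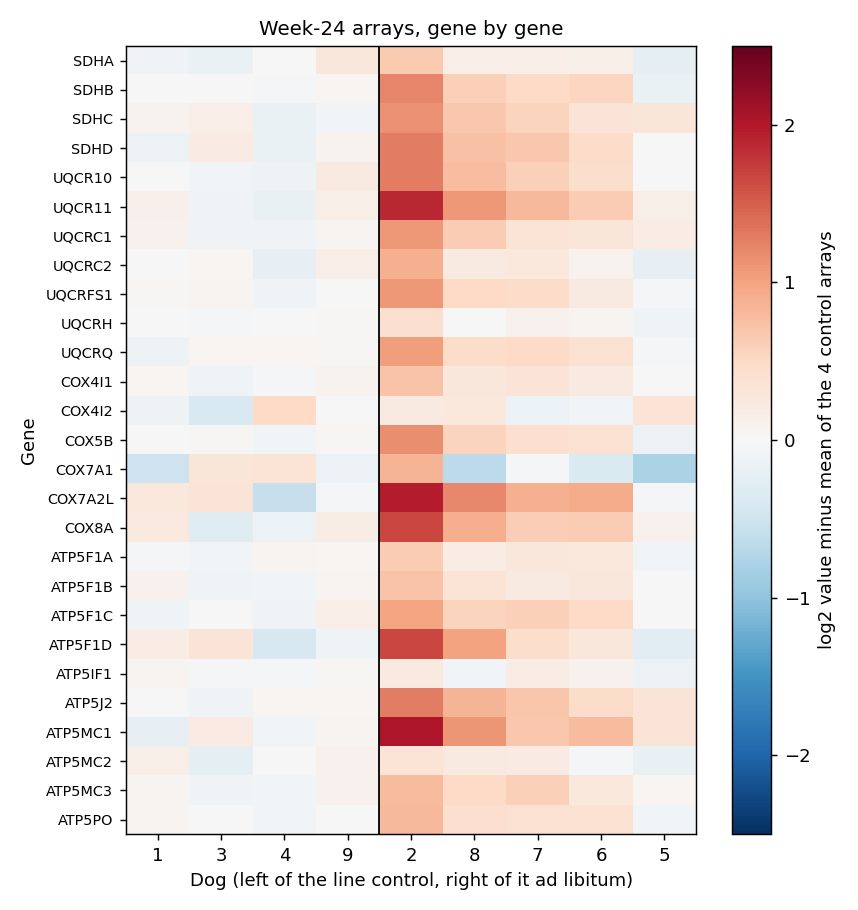
Each week-24 array (horizontal axis, dogs, controls left of the line) and each of the 27 genes (vertical axis) as the log2 value minus the mean of the 4 control arrays (colour). Among the ad libitum columns dog 2 has the highest value in 26 of 27 genes and dog 5 the lowest in 26 of 27.

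Other cell markers and an RNA quality measure differed along the same arrays. The mean over 12 adipocyte genes ran from 11.23 to 12.64 in week-24 controls and from 11.72 in dog 5 to 13.83 in dog 2, and 4 of the 12 genes were called higher at week 24. The mean over 11 fibroblast and preadipocyte genes ran from 12.85 to 13.78 in controls and from 11.46 in dog 2 to 13.46 in dog 5, with 0 of 11 called. UCP1, the uncoupling protein of brown and beige fat, was at log2 10.26 on the week-24 array of dog 2 and at 1.94 to 3.18 on the other 8 week-24 arrays; it was above 4 on 3 of 45 arrays. Of the other 6 brown or beige markers on the array, DIO2, PRDM16 and ELOVL3 stayed below 4 on every array. CIDEA, which is also in the adipocyte list, averaged 15.32 in week-24 controls and 15.71 in ad libitum dogs, EBF2 8.49 and 8.73, and PPARGC1A 4.67 and 5.87. None of the 3 markers that could be tested was called at week 24. The part of these markers in the week-24 difference was not tested.

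The 3' minus 5' signal of the actin control, which grows as RNA degrades or labelling shortens, was 4.79 ± 1.20 (SD, n = 4) in week-24 controls and 3.51 ± 0.910 (SD, n = 5) in ad libitum dogs. It was lowest in dog 2 (2.37) and dog 8 (2.73) and 4.47 in dog 5. The 2-sided exact permutation p for this group difference was 0.103, adjusted to 0.172 over the 5 weeks. With the actin value as a covariate, the median difference of the 27 genes was 0.31, 26 of 27 stayed above 0 and 0 were called. In that fit 0.106% of all tested probe sets were called higher, against 3.76% in the main fit. Without dog 2, 0 of 27 genes were called at week 24, with a median of 0.32, while 0.798% of all tested probe sets were called higher. Without dog 7, 0 were called, against 1.64% of all tested probe sets. Without dog 5, 12 were called, with a median of 0.59, against 9.00% of all tested probe sets. Leaving out dog 4, 6, 8 or 9 left 1 call each time, ATP5J2, against 1.31%, 1.52%, 2.62% and 2.75% of all tested probe sets.

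Within the control dogs, most of the genes fell between week 0 and week 24. Of 27 genes, 21 were called lower (limma), against 4.71% of all tested probe sets, and all 27 fitted changes were below 0, with a median of -1.01 against 0.03 over all tested probe sets. All 4 week-24 control arrays lay below all 4 week-0 control arrays in 24 of 27 genes (all but COX4I2, COX7A1 and ATP5MC2), against a background of 9.49%. They lay below all 16 earlier control arrays in 21 of 27 genes. That count was not made over all tested probe sets, so it has no background beside it. The week-24 arrays are also a batch of their own, so in this change week and batch cannot be told apart. Other measures also differed between these control arrays. From week 0 to week 24 the mean actin 3' minus 5' value, a measure of RNA quality, went from 2.89 to 4.79. The mean over the adipocyte genes went from 12.65 to 12.09, with 2 of 12 called lower. The mean over the fibroblast and preadipocyte genes went from 12.46 to 13.18, with 0 of 11 called. Their part in the change was not tested.

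**Figure D4:**
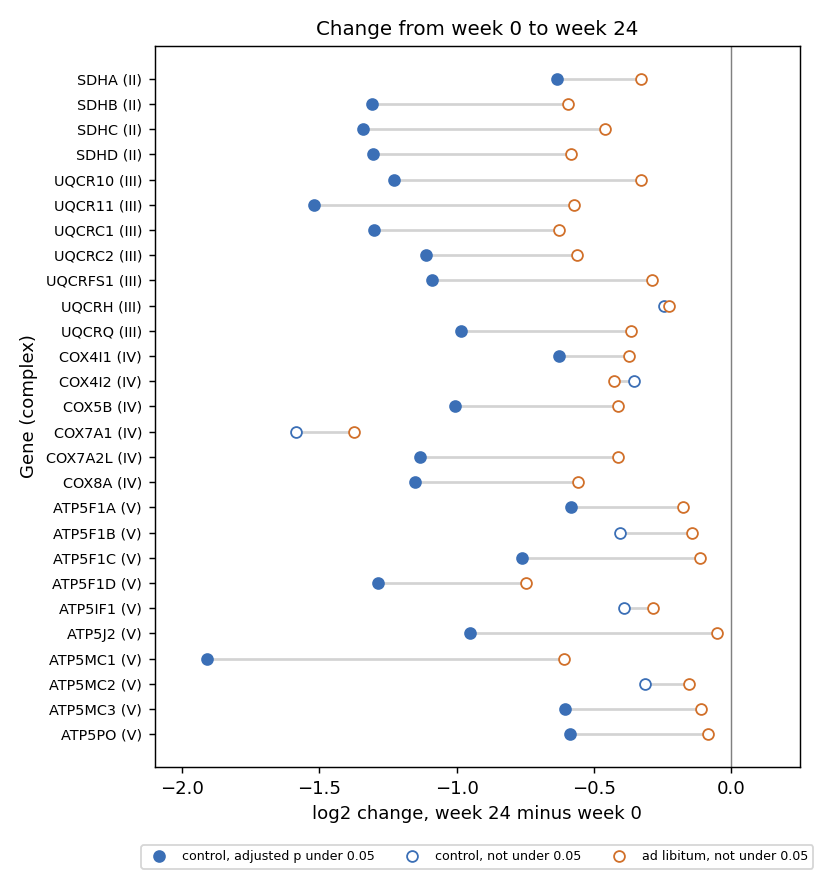
Fitted log2 change from week 0 to week 24 (horizontal axis) for each of the 27 genes (vertical axis, complex in brackets), in control dogs (blue) and ad libitum dogs (orange). Filled points passed the adjusted threshold: 21 genes in control dogs and 0 in ad libitum dogs, and all points lie below 0.

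All 4 genes of complex II fell in the controls. SDHC read 13.38, 14.04, 12.83 and 12.88 at week 0 in dogs 1, 3, 4 and 9 and 11.99, 12.06, 11.74 and 11.84 at week 24, a change of -1.34 (SE 0.242, 2.53-fold lower, adjusted p = 0.00154, limma). The weeks did not overlap. SDHB and SDHD each had a change of -1.31 (SE 0.266 and 0.250), and SDHA of -0.64 (SE 0.204).

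Of complex III, 6 of 7 genes fell, all but UQCRH. UQCR11 read 12.81, 13.39, 11.86 and 11.58 at week 0 and 10.94, 10.72, 10.63 and 10.97 at week 24 in dogs 1, 3, 4 and 9. Its change was -1.52 (SE 0.327, 2.87-fold lower, adjusted p = 0.00523, limma). UQCRC1 changed by -1.30 (SE 0.235).

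Of complex IV, COX4I1, COX5B, COX7A2L and COX8A fell, by 0.63, 1.01, 1.13 and 1.15 on the log2 scale, whereas COX4I2 had -0.35 (SE 0.270, adjusted p = 0.438, limma). COX7A1 had a large change with a wide error, -1.58 (SE 0.521, adjusted p = 0.0538, limma). Its week-0 controls read 12.99 in dog 1, 14.08 in dog 3, 10.76 in dog 4 and 10.97 in dog 9. Dogs 1 and 3, the 2 high ones, were the 2 week-0 control arrays with muscle transcripts.

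Of complex V, 7 of 10 genes fell, with ATP5MC1 the largest change among all 27. ATP5MC1 read 14.05, 14.62, 12.85 and 12.57 at week 0 in dogs 1, 3, 4 and 9 and 11.33, 11.74, 11.45 and 11.59 at week 24, a change of -1.91 (SE 0.375, 3.76-fold lower, adjusted p = 0.00284, limma). The 2 highest week-0 arrays were again those of dogs 1 and 3. ATP5F1B had -0.41 (SE 0.140), ATP5IF1 -0.39 (SE 0.148) and ATP5MC2 -0.31 (SE 0.174), and these were not called.

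The control change depended on a few arrays. Without the arrays with muscle transcripts, which leaves control dogs 4 and 9 at week 0 and dogs 1 and 9 at week 24, all 27 changes stayed below 0 with a median of -0.68, and 0 were called. Without dog 3, 2 genes were called, with a median of -0.81. With the actin value as a covariate the median was -0.73, and 0 were called. Leaving out dog 9 gave 14 calls. The shares of all tested probe sets called in these runs are not given here.

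In the ad libitum dogs, the change from week 0 to week 24 was also below 0 for all 27 genes, against 48.1% of all tested probe sets. By limma 0 were called, against 4.78% of all tested probe sets called in either direction. An unadjusted p under 0.05 was found for 11 genes, against 21.8% of all tested probe sets. The median was -0.37, against 0.02 over all tested probe sets. The smallest p belonged to UQCRC1 (-0.63, SE 0.213, adjusted p = 0.0777), COX7A1 (-1.38, SE 0.472, adjusted p = 0.0818) and ATP5F1D (-0.75, SE 0.275, adjusted p = 0.102), by limma. ATP5J2, which was higher than in controls at week 24, had a change of -0.05 (SE 0.175) in these dogs and of -0.95 (SE 0.193) in the controls.

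The dogs did not change alike. Dog 2 had 26 of 27 genes higher at week 24 than at week 0, with a mean change of 0.49, and COX4I2 was the exception. The mean change was -0.57 in dog 5, -0.45 in dog 6, -0.83 in dog 7 and -0.65 in dog 8, with 26, 26, 27 and 27 genes lower. Among controls it was -1.12 in dog 1, -1.47 in dog 3, -0.79 in dog 4 and -0.60 in dog 9, with 27, 27, 25 and 27 genes lower. Only dogs 2, 6 and 9 had arrays without muscle transcripts at both weeks. Of these, control dog 9 had 27 genes lower, ad libitum dog 6 had 26 lower, and ad libitum dog 2 had 26 higher. Without dog 2, 6 genes were called in the ad libitum change, and the share of all tested probe sets called in that run is not given here.

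The feeding effect at week 24 was found by subtracting the controls' change since week 0 from that of the dogs fed freely. It was above 0 for 26 of 27 genes, against 50.4% of all tested probe sets, with medians of 0.59 and 0.01. By limma 0 were called, and 13 had an unadjusted p under 0.05, against 10.2% of all tested probe sets. Of all tested probe sets, 0.0220% were called. The smallest p belonged to ATP5J2 (0.90, SE 0.260, adjusted p = 0.238), UQCR10 (0.90, SE 0.317, adjusted p = 0.332) and SDHC (0.88, SE 0.327, adjusted p = 0.359), by limma. The difference between the feeding groups in their change over time was therefore not detectable gene by gene in 9 dogs.

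At the earlier weeks 0 of 27 genes were called in each direct comparison (limma). At week 0, where 0% of all tested probe sets were called, 7 of 27 differences were above 0, and the smallest p belonged to UQCRFS1 (-0.36, SE 0.235), UQCR10 (-0.29, SE 0.228) and UQCRC2 (-0.29, SE 0.244). At week 4, with 0.0132% called, 13 of 27 were above 0, led by ATP5MC2 (-0.32, SE 0.194), SDHA (-0.34, SE 0.227) and COX8A (-0.40, SE 0.278). In neither week did any of the genes have an unadjusted p under 0.05. At week 4 the feeding groups shared no batch, so the fitted signs rest on the batch term: with plain group means, 2 of 27 genes (COX4I2 and COX7A2L) were higher in ad libitum dogs and 25 lower, with a median of -0.29. In that week the actin 3' minus 5' value was 3.00 ± 0.275 (SD, n = 4) in controls, against 1.75 ± 0.237 (SD, n = 5) in dogs fed freely (2-sided exact permutation p = 0.00794, the smallest that 126 regroupings can give, adjusted 0.0397).

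At week 8, when 1.42% of all tested probe sets were called, 14 of 27 genes were above 0. COX7A2L had the smallest p (0.54, SE 0.266, unadjusted p = 0.0498, adjusted p = 0.200, limma), followed by COX4I2 (0.42, SE 0.256) and UQCRC2 (-0.36, SE 0.239). Leaving out the week-8 arrays labelled dogs 5 and 9 also gave 0 calls. At week 12, with 0.00441% called, 26 of 27 differences were below 0, with a median of -0.25. This count also rests on the batch term: with plain group means, 20 of 27 were below 0, with a median of -0.07. The smallest p belonged to ATP5IF1 (-0.42, SE 0.151, unadjusted p = 0.00921, adjusted p = 0.451, limma), SDHA (-0.47, SE 0.209) and ATP5MC2 (-0.35, SE 0.178).

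Within batches, the difference in the mean over the 27 genes had no steady sign before week 24. At week 0 it was 0.13, -0.80 and 0.49 in batches 1, 2 and 4. At week 8 it was -0.46, 0.39, 0.04 and -0.12 in batches 1, 3, 4 and 5, and at week 12 it was -0.17 and -0.60 in batches 2 and 4. Most of these batches held 1 dog per group. The week-8 values of batches 3 and 5 include the arrays labelled dogs 5 and 9, which matched each other's dog and so the other feeding group. In batch 6 at week 24 it was 0.45 with 4 and 5 dogs.

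Some of the genes were higher on arrays with muscle transcripts. Over weeks 0 to 12, 24 of 27 genes had a higher mean on the 8 arrays with muscle transcripts than on the other 28, with a median difference of 0.21. COX7A1, the muscle form, averaged 12.39 against 11.13, and ATP5MC1 13.60 against 12.84. UQCR11 averaged 12.51 against 11.96. The exceptions were COX4I2 (8.82 against 9.30), COX7A2L (10.67 against 10.92) and COX8A (12.57 against 12.81). COX7A2L and COX8A are also among the 3 genes called higher at week 24.

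**Figure D5:**
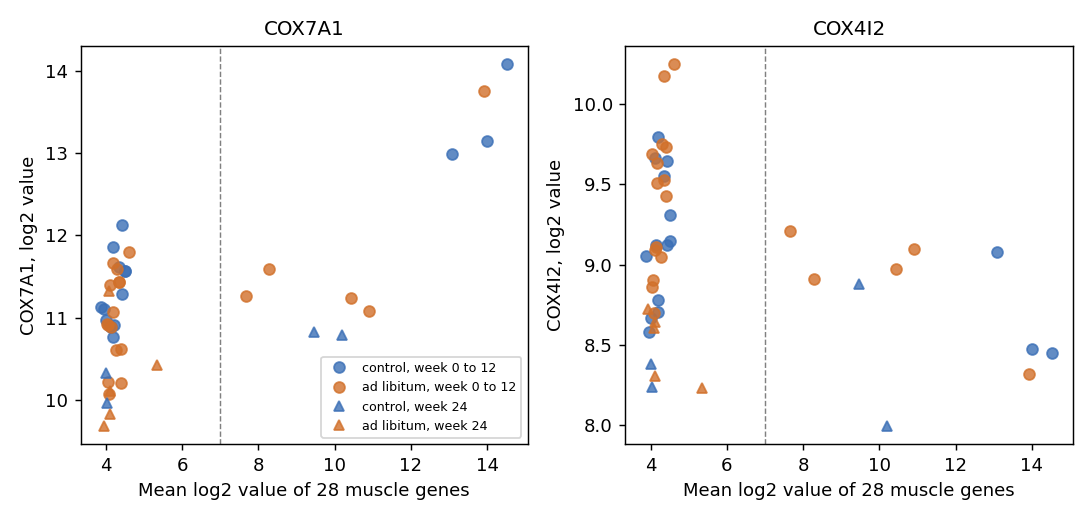
Log2 value of COX7A1 (left) and COX4I2 (right) on each of the 45 arrays against the mean log2 value of 28 skeletal muscle genes on the same array; triangles are week-24 arrays and the dashed line at 7 separates the 10 arrays with muscle transcripts. The 4 highest COX7A1 values lie among the arrays with the most muscle RNA, and COX4I2 shows no such rise.

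Of the genes, 16 had more than 1 tested probe set, and the probe sets did not always give the same size of change. For 14 of the 16 all probe sets had the same sign at week 24, and for 15 of the 16 in the control change. All 4 probe sets of COX8A were above 0 at week 24 (0.42 to 0.89), and 3 of them were called. Both probe sets of COX7A2L were called (0.69 and 0.99). Of the 2 ATP5J2 probe sets, 1 was called (0.72), and the other had 0.70.

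For UQCRH, the hinge protein of complex III, and the inhibitor ATP5IF1, the brightest probe set was not called in the control change and the others were. The brightest UQCRH probe set had a control change of -0.24, whereas its 2 other tested probe sets had -1.31 and -1.39 and were called lower. The brightest ATP5IF1 probe set had -0.39, against -1.10 and -1.16 in the other 2, both called lower. For UQCR11, 3 probe sets fell in controls and the 3 dimmer ones, at mean levels of 6.74, 7.31 and 7.62, lay between -0.36 and -0.03. UQCRC2 had 1 dim probe set with the opposite sign, 1.03 in the control change (adjusted p = 0.00295, limma, called higher), which was above log2 4 on only 4 arrays. With any tested probe set counted, 24 of 27 genes had a called fall in the controls. This rule can only raise the count made at the brightest probe sets, and its share over all genes was not computed.

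The 6 genes with a mean level above log2 14 had a median control change of -0.49, against -1.13 in the other 21. Across the 27 genes, which share their arrays, the rank correlation of mean level with control change was 0.53, and with the week-24 difference it was -0.29; both are given as descriptions. The part of the signal level in the small differences of UQCRH and ATP5IF1 was not tested.

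Genes that help build these complexes or work with them were mostly above 0 at week 24 too. Of 43 listed symbols of assembly factors and partners, 31 genes could be tested. The list holds ATP5IF1, also under its old symbol ATPIF1, and CYC1, which is itself a subunit of complex III. Of the 31, 27 were above 0 at week 24, with a median of 0.48, and 3 were called higher, against 3.76% of all tested probe sets. The 3 were SDHAF2, which attaches the flavin to SDHA (1.23, SE 0.253, adjusted p = 0.00523), ATPAF2, which helps assemble the F1 head (1.48, SE 0.385, adjusted p = 0.0207), and NDUFA4, now counted as a subunit of complex IV (0.68, SE 0.209, adjusted p = 0.0482), by limma. In controls 10 of the 31 fell from week 0 to week 24, CYC1 among them, against 4.71%. In ad libitum dogs 2 of the 31 were called, a share near the 4.78% of all tested probe sets, so this count is no result about the list. Of these, 1 rose, HIGD1A, a partner of complex IV induced by low oxygen (1.54, adjusted p = 0.0396), and 1 fell, UQCC3, an assembly factor of complex III (-1.06, adjusted p = 0.0471), by limma.

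Complex I, the entry point for electrons from NADH, had differences of like sign. Its 34 tested genes were taken by symbol prefix without NDUFA4, and they include NDUFA4L2, a relative of NDUFA4. All 34 were above 0 at week 24, with a median of 0.53, and 2 were called higher, a share near the 3.76% of all tested probe sets. In controls 28 of 34 fell from week 0, against 4.71%. In ad libitum dogs 3 of 34 were called lower and 0 higher, and of the 22690 tested probe sets 544 were called lower. These counts come from the same arrays, and no difference between complex I and the other complexes was tested.

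The regulators of mitochondrial biogenesis showed no called change. Of 20 listed symbols (TWNK also under its old symbol PEO1), 13 genes could be tested. Of these, 0 were called at week 24, in the feeding effect or in the change within either group (limma). At week 24, 3 of the 13 had an unadjusted p under 0.05. The differences were above 0 for 7 of the 13 and below 0 for 6. Those 3 regulators were ESRRA, a nuclear receptor (1.45, SE 0.589, adjusted p = 0.134), PPARGC1B, a coactivator related to PPARGC1A (0.84, SE 0.382, adjusted p = 0.181), and PPRC1, another relative, with the opposite sign (-0.78, SE 0.322, adjusted p = 0.141), by limma. PPARGC1A, the coactivator that drives mitochondrial biogenesis, differed by 1.20 at week 24 (SE 0.631, adjusted p = 0.254, limma). PPARGC1A and ESRRA had mean levels near the filter, log2 5.32 and 5.36, and wide errors.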

How the data were processed

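The values are log2 GCRMA expression values deposited by the authors, 1 per probe set and array. GCRMA is named without a version in the submitters' processing notes; the log base was read from the range (0.42 to 17.51), and the sources used here do not say whether the authors corrected for batch or filtered. RNA was extracted with Trizol and labelled with biotin, per the labels' protocols.

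Of 43035 probe sets, 111 array controls were left out, and 22690 of 42924 above log2 4 on at least 4 of 45 arrays were tested in limma 3.58.1 (R 4.3.3, statmod 1.5.0). The fit had 10 group-by-week means, batches 1 to 5 coded to sum to 0 (batch 6 held every week-24 array and had no term), and the dog as a random block, paired by the animal id in the labels (correlation 0.00562), leaving 31 residual degrees of freedom. Adjustment was by Benjamini-Hochberg over all 22690, threshold 0.05. The fit was also run on simulated data with independent noise, the same spread in every group and no dog or batch effect. Those settings differ from these data, so that run does not give the error rates here. Symbols came from the platform's annotation table.

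The genes and lists were chosen with earlier results of these data known. Genes named with values are those past the threshold by size, the 2 with the smallest p in each complex at week 24, the 3 with the smallest p where few passed, and the tissue isoforms. The other genes of each complex are given with a difference and its error so that each is accounted for. UCP1 by array, the ATP5MC1 arrays at week 24 and the probe-set comparisons were picked after their values were seen. The 2 probe sets of COX6A2 were left out by the rule. An array carried muscle transcripts when its mean over the muscle list was above log2 7. Alternatives changed the block, batch term, filter, probe-set rule, scaling, actin covariate and arrays used.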

Additional observations from a re-analysis of the deposited data

Results flagged for a closer look

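Of 320 groups of 4 or 5 arrays (each of the 27 genes and the means over all of them and over each complex, by feeding group and week), 12 held an array far from the rest: its gap to the nearest array, divided by the group's range, was above Dixon's 95% critical value. Chance gives about 1 in 20 such groups, and 3.75% were found.

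In week-0 controls, dog 3 was the highest for SDHD (10.87, nearest 10.27, ratio 0.920), UQCRC2 (12.88, nearest 11.91, ratio 0.856) and ATP5PO (14.47, nearest 14.02, ratio 0.931). In week-0 ad libitum dogs, dog 7 was the highest for COX7A1 (13.76, nearest 11.59, ratio 0.766). In week-8 controls, dog 4 was the highest for COX7A1 (13.15, nearest 11.12, ratio 0.896) and ATP5IF1 (14.59, nearest 14.14, ratio 0.867). These 6 values come from 3 arrays with muscle transcripts, whose part was not tested. The week-8 array labelled dog 9, which matched dog 5, was the highest control for COX7A2L (11.31, nearest 10.68, ratio 0.880).

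The other 5 were low values on arrays without muscle transcripts. In controls, dog 3 was the lowest for UQCRFS1 at week 4 (13.22, nearest 13.58, ratio 0.854), and dog 4 for SDHA (12.03, nearest 12.59, ratio 0.838) and UQCR11 (11.11, nearest 11.86, ratio 0.866) at week 12. Dog 8 was the lowest ad libitum dog for COX4I1 at week 12 (13.57, nearest 14.10, ratio 0.734). In week-24 controls, dog 1 was the lowest for UQCRQ (12.66, nearest 12.82, ratio 0.877).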

How the results depend on the processing

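The dog identity pairs the arrays, and with no replicate block the counts were the same, 3 genes at week 24 and 21 in the control change. In every alternative run, 26 of 27 genes were above 0 at week 24, not always the same 26, and all 27 control changes were below 0. With the actin covariate and without the arrays with muscle transcripts, 0 genes were called at week 24 and 0 in the control change, while the median differences were 0.31 and 0.45 at week 24 and -0.73 and -0.68 in the control change, in that order; fewer arrays enter the second, and otherwise the cause was not tested. In these runs, in the same order, 0.106% and 0.145% of all tested probe sets were called higher at week 24. Leaving out each dog gave 0 to 12 calls at week 24, 2 to 22 in the control change and 0 to 6 in the ad libitum change. In those runs 0.798% to 9.00% of all tested probe sets were called higher at week 24. The mean of all probe sets of a gene gave 1 call in the ad libitum change, where the reported count was 0. COX7A1 turned from -0.20 to 0.10 at week 24 without the arrays with muscle transcripts. ATP5J2 stayed past the threshold in 14 of 18 alternatives, COX7A2L in 10 and COX8A in 4; COX8A was lost, for example, with no batch term, no filter and quantile normalization, each of which left 2 calls. The median difference at week 24 ran from 0.31 to 0.59. The number of arrays limits the precision.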

Other observations

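Marker lists of other cell types were read beside these genes. Macrophage genes had a mean of log2 8.65 in week-24 controls and 8.69 in ad libitum dogs, endothelial genes 9.85 and 9.87, and smooth muscle genes 9.69 and 8.83. T and NK cell genes lay between 3.41 and 4.07 in controls and between 3.24 and 4.25 in ad libitum dogs. Each of these lists had 0 genes called at week 24 by limma. Mammary epithelial genes reached a mean of 9.13 on 1 week-24 control array and stayed at 2.58 to 2.73 on the ad libitum arrays. The UCP1 values above log2 4 were 10.26 in dog 2 at week 24, and 5.87 and 4.95 in dog 8 at weeks 0 and 8.

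COX4I2, the form of subunit 4 known for its response to low oxygen, is given here by week. Its means in controls were 8.73 at week 0, 9.31 at week 4, 8.86 at week 8, 9.40 at week 12 and 8.37 at week 24, and in ad libitum dogs 8.86, 9.59, 9.28, 9.46 and 8.50. No difference between weeks was tested for this course, and weeks and batches overlap only in part.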
